A study of Mus musculus with 8 samples.

Results

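Cd44 and Cd82 encode surface proteins of activated T cells, and their loci on mouse chromosome 2 were followed here through chromatin accessibility in regulatory T (Treg) cells. The members were selected by position in the mm9 build, as every accessible site of the deposited table whose midpoint lay between 102630000 and 102800000 (the Cd44 window) or between 93200000 and 93400000 (the Cd82 window). The rule gave 27 sites for Cd44 and 34 for Cd82, 61 of the 79758 sites in the table. The 2 genes were picked with earlier results of the same libraries in view, and which values led to them is not recorded. The counts of called sites at both loci are therefore a description and not independent support, and no p-value is printed for any member.

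ATAC-seq reads accessibility through a transposase that inserts sequencing adapters where chromatin is open. Treg cells from spleen and lymph nodes of mixed bone marrow chimeras were sorted into central (cTreg) and effector (eTreg) subsets, each wild type (WT) or lacking Pggt1b (Pggt1bKO). The 4 groups held 2 libraries each, 8 in all. All groups therefore share the chimeric setting, in which donor cells of different genotype can develop in the same host. Not given in the sources used here are the deleted allele, the driver of the deletion, the host strain, the age of the mice, any pooling of animals and the sort gates. Nor do the labels state separate animals within a group, so a call measures spread that may be only technical. Subset names follow common usage of the title abbreviations.

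CD44 is the main cell surface receptor for hyaluronan, a sugar polymer of the extracellular matrix, and helps lymphocytes to adhere and migrate. It is displayed at high density on antigen-experienced and effector T cells and at low density on resting ones, while CD62L shows the opposite pattern. CD82 is a tetraspanin, a protein that crosses the membrane several times and groups integrins and receptors into membrane domains; it is also induced on activated T cells. Pggt1b encodes the beta subunit of geranylgeranyl transferase I, an enzyme that attaches a lipid to proteins so that they can bind membranes. Because central and effector Treg cells are commonly separated by CD44 and CD62L, a subset difference at Cd44 may follow from the sort itself and is no finding of its own. CD82 is not part of that usual gate. A subset difference at Cd82 may still follow from the sort, which was not tested.

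The promoters of both genes are printed because they are the reference sequence by which the 2 loci can be recognised. Each run is the 250 bases before a transcription start in RefSeq (GRCm38.p6, minus strand), read 5′ to 3′, and capitals mark a GC box (GGGCGG on either strand). The Cd44 run lies at chr2:102901666-102901915 and the Cd82 run, from the first of 4 listed starts, at chr2:93462951-93463200.
Cd44: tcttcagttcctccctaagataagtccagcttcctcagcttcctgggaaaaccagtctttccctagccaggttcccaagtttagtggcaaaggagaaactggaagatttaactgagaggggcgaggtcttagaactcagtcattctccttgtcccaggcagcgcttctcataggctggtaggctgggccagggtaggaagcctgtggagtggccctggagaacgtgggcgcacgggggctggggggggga
Cd82: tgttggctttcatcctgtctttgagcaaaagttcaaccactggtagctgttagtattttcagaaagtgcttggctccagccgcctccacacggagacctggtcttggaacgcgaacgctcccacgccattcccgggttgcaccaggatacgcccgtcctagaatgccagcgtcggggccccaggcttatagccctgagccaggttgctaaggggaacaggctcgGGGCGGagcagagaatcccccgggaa
GC content was 56.4% with 5 CpG in the Cd44 promoter and 58.4% with 14 CpG in the Cd82 promoter, against medians of 52.4% and 6 CpG over 32536 RefSeq promoters of the same length. The search covered both strands for TGANTCA (AP-1 and BATF, in 6.73% of all promoters), GGGCGG (SP and KLF factors, 33.0%), CCGGAAG (ETS, 6.95%), TGTGGTT (RUNX, 4.41%), TGTTTAC (forkhead, 3.17%) and TGGAAA (NFAT, 18.6%). Of these letters, 1 GC box was present in the printed Cd82 promoter and none was present in the Cd44 promoter. Of the Cd82 starts not printed, start 2 held 1 GC box, start 3 no match and start 4 1 NFAT match. Those starts held 12, 11 and 3 CpG in the same order. These coordinates belong to another build than the accessible sites, so no site is placed on a promoter, exon or intron, and the assignment of each window to its gene rests on the rule alone.

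Library totals ran from 1664702 to 14974253 counts. Both Pggt1bKO eTreg libraries were the shallowest, with at most 2255214 counts, while the other 6 held at least 7153991. The median count at the 58 tested member sites was 43 and 46 in the WT cTreg libraries, 54.5 and 86 in WT eTreg, 22.5 and 25 in Pggt1bKO cTreg, and 8 and 4.5 in Pggt1bKO eTreg. A member listed at 0 was seen at 6 and 11 of 61 sites in the Pggt1bKO eTreg libraries and at no more than 4 in any other. Values of that group thus carry the largest counting error. Treg and other cell type markers could not be checked, because the sites carry no gene names.

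The 34 Cd82 sites lay in a single run of 66.4 kb with no gap over 10 kb, whereas the 27 Cd44 sites fell into 6 clusters over 153.1 kb. Most sites were narrow, with a median width of 128 bp at Cd44 (range 12 to 559) and 101.5 bp at Cd82 (range 11 to 1422). Sites wider than 500 bp numbered 3 at Cd44 and 5 at Cd82. Sites are numbered by position within a window, and all coordinates are chr2, mm9. Whether the start coordinates count from 0 or 1 is not stated. Levels are CPM, counts per 1000000 counts of a library, after trimmed mean of M values (TMM) scaling. A site is called higher or lower where edgeR's quasi-likelihood test gave a Benjamini-Hochberg adjusted p under 0.05 over the 75352 sites tested. All 27 Cd44 sites and 31 of the 34 Cd82 sites passed the filter on low counts, and sites 2, 17 and 28 of Cd82 did not.

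**Figure D1:**
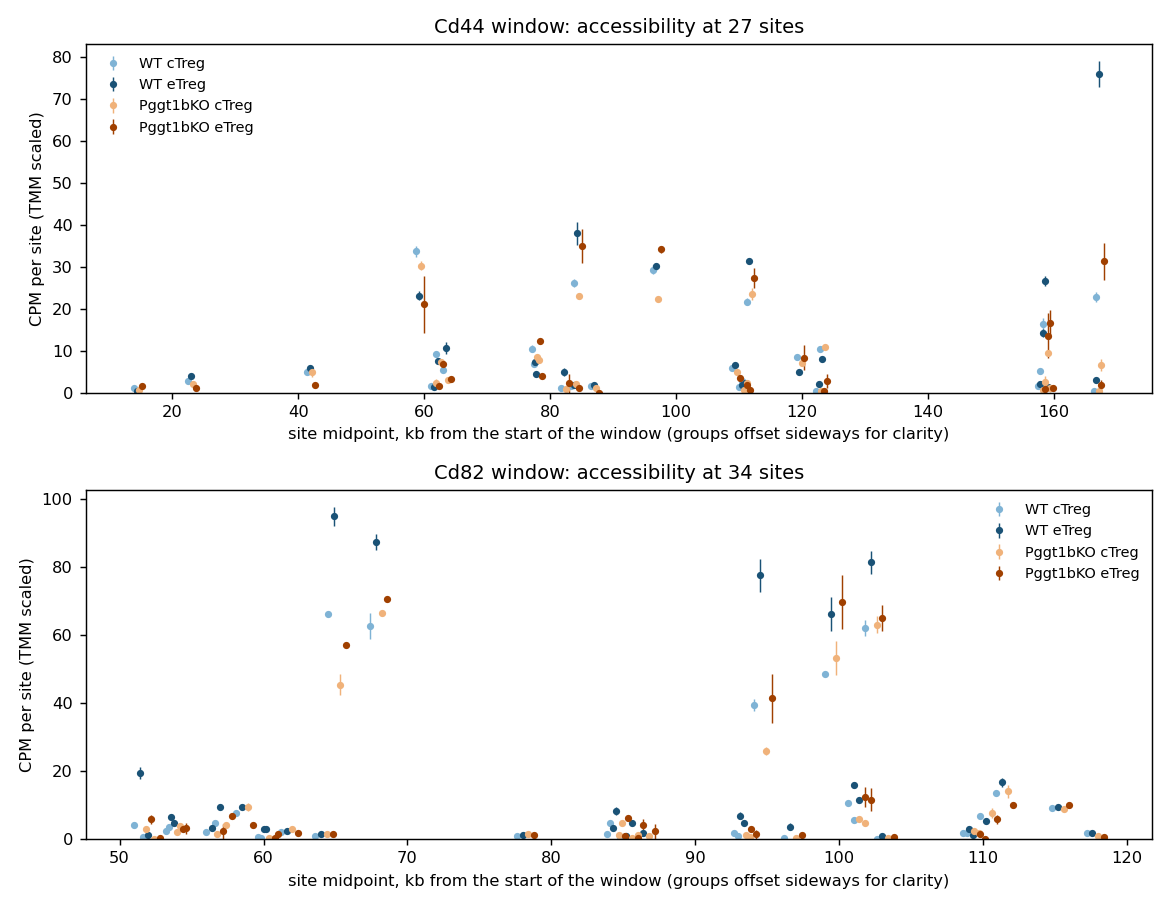
CPM of every member site against the distance of its midpoint from the window start in kb, with 1 colour per group, for Cd44 (upper panel) and Cd82 (lower panel). Points are means of 2 libraries and bars run from the lower to the higher library. At Cd44 the groups separate most at the right end (site 27), and at Cd82 the 5 wide sites carry the highest levels, with WT eTreg above WT cTreg at each.

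Summed over each window, both loci were most accessible in WT eTreg cells and least accessible in Pggt1bKO cTreg cells. The summed Cd44 level was 237 and 231 CPM in the WT cTreg libraries, 314 and 326 CPM in WT eTreg, 184 and 187 CPM in Pggt1bKO cTreg, and 254 and 216 CPM in Pggt1bKO eTreg. The Pggt1bKO eTreg libraries spanned the WT cTreg range, so these neighbours in the order did not differ beyond their spread, while the WT eTreg and Pggt1bKO cTreg libraries stood clear on either side. Mean Cd44 levels were 234.0 ± 3.796 CPM in WT cTreg, 320.1 ± 8.20 in WT eTreg, 185.4 ± 2.25 in Pggt1bKO cTreg and 235.1 ± 26.5 in Pggt1bKO eTreg (SD, n = 2 each). The ratio of eTreg to cTreg was 1.37 in WT and 1.27 in Pggt1bKO cells, and the ratio of Pggt1bKO to WT was 0.792 in cTreg and 0.734 in eTreg.

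The summed Cd82 level was 366 and 370 CPM (means of 368.0 ± 2.41, SD, n = 2) in WT cTreg and 577 and 562 CPM (569.6 ± 10.4) in WT eTreg. It was 345 and 331 CPM (338.1 ± 9.91) in Pggt1bKO cTreg and 409 and 400.0 CPM (404.3 ± 6.05) in Pggt1bKO eTreg. No 2 groups overlapped at Cd82, and the order ran from Pggt1bKO cTreg through WT cTreg and Pggt1bKO eTreg to WT eTreg. The ratio of eTreg to cTreg was 1.55 in WT and 1.20 in Pggt1bKO cells. The gap between the subsets in Pggt1bKO cells was 32.8% of the WT gap at Cd82 and 57.7% at Cd44. The Cd44 share became 35.9% without Pggt1bKO eTreg replicate 1 and 79.5% without replicate 2 of that group, whereas the Cd82 share stayed between 29.4% and 36.3% whichever of the 8 libraries was left out. Per kb of covered sequence the 2 loci were alike in WT eTreg cells, at 66.5 CPM per kb for Cd44 and 66.4 for Cd82. With 2 libraries against 2, an exact permutation test cannot give a two-sided p below 0.33, so these sums carry no test. In bulk libraries, a smaller share of cells with an open site and a less open site in each cell cannot be told apart.

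The first comparison addresses how the loci differ between the subsets of WT Treg cells. At Cd44, 9 of 27 sites were called higher in WT eTreg and 2 lower, where 13.8% and 14.9% of all sites tested were called in these directions. The median log2 change was 0.20 at Cd44 and 0.00 over all sites. Most of the summed difference was at 6 sites within 9.6 kb at the right end of the window (sites 22 to 27), which held 87.2% of it. Those 6 sites summed to 51.6 and 44.0 CPM in WT cTreg and to 122 and 123 CPM in WT eTreg, a ratio of 2.57. The other 21 sites summed to 185 and 187 CPM in WT cTreg and to 192 and 203 CPM in WT eTreg, a ratio of 1.06. The 10 kb gap that divides these sets was chosen after the values had been seen.

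Cd44 site 27 (102797067-102797607) was the site of that end with the highest level. It read 23.8 and 21.6 CPM in WT cTreg and 72.9 and 79.1 CPM in WT eTreg, a log2 difference of 1.74 ± 0.13 (SE). The 2 groups were far apart, and the site alone made up 9.71% of the summed Cd44 level in WT cTreg and 23.7% in WT eTreg. Without it the summed Cd44 ratio was 1.16. In the same cluster, site 23 (102788308-102788521) read 5.48 and 4.91 CPM in WT cTreg and 15.1 and 13.2 CPM in WT eTreg (log2 1.44 ± 0.28). Site 24 (102788774-102788915) went from 17.8 and 14.97 CPM to 27.8 and 25.3 CPM (0.69 ± 0.16). Neither site overlapped between the subsets, which the rule for naming sites required of site 23. The narrow site 26 (102796892-102796958) rose from 0.725 and 0.238 CPM to 2.69 and 3.12 CPM (2.57 ± 0.62), a call that was lost without WT cTreg replicate 2 (1.99).

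Elsewhere in the Cd44 window the called sites were scattered and went both ways. Site 10 (102712283-102712352) rose from 1.13 and 1.19 CPM to 3.98 and 5.77 CPM (2.07 ± 0.47), and site 7 (102693541-102693747) rose from 5.24 and 5.46 CPM to 9.18 and 12.2 CPM (1.002 ± 0.26). Both calls were lost without WT eTreg replicate 2 (1.76 and 0.77), and that of site 7 also without WT cTreg replicate 1 (0.95). Site 12 (102714114-102714634), among the 3 with the highest levels at Cd44, rose from 25.2 and 27.1 CPM to 35.2 and 40.6 CPM (0.54 ± 0.13). Site 14 (102726635-102727194), the widest of the window at 559 bp, was flat between the subsets, with 30.4 and 28.2 CPM in WT cTreg and 30.9 and 29.2 CPM in WT eTreg (0.03 ± 0.13, not called). The 2 sites called lower were site 19 (102749696-102749797), which fell from 9.02 and 8.16 CPM to 5.28 and 4.41 CPM (-0.83 ± 0.27), and site 4 (102689104-102689409), which fell from 32.2 and 35.0 CPM to 21.97 and 24.2 CPM (-0.54 ± 0.14). Site 4 and 2 further sites called higher, 18 (102741573-102741942) and 20 (102752827-102752867), lay outside the naming rule and are named after their values were seen. The call at site 19 was lost by DESeq2 and without either WT cTreg library or WT eTreg replicate 2 (-0.90 to -0.71). The 11 calls at Cd44 dropped to 6 without either WT cTreg library and to 7 without WT eTreg replicate 2.

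At Cd82 all called sites were higher in WT eTreg, and they lay from site 1 to site 27 of the run. Of 31 tested sites, 17 were called higher and 0 lower, where 13.8% and 14.9% of all tested sites were called in these directions. A fitted difference above 0 was seen at 29 of 31 Cd82 sites, against 50.2% of all tested sites. None of the 6 sites at the right end (29 to 34) was called, and 2 of them, 30 and 31, were fitted below 0 (-0.55 and -0.31). The median log2 difference was 0.84. DESeq2 called 15 Cd82 sites higher and limma-voom 18, and edgeR at an unadjusted p under 0.05, DESeq2 and limma-voom each gave 0 Cd82 sites lower. All 5 Cd82 sites wider than 500 bp were called higher, where 29.2% of all tested sites of that width were. Of the 26 narrower Cd82 sites 12 were called higher, against 12.3% of all sites of up to 500 bp. The wide sites changed by 0.39 to 0.98 on the log2 scale and the called narrow ones by 0.60 to 4.07.

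The 5 wide Cd82 sites summed to 278 and 278 CPM in WT cTreg, 416 and 398 CPM in WT eTreg, 260 and 247 CPM in Pggt1bKO cTreg, and 301 and 305 CPM in Pggt1bKO eTreg. The 29 narrower ones summed to 87.9 and 91.5 CPM, 161 and 164 CPM, 85.2 and 83.8 CPM, and 108 and 94.8 CPM in the same order. The ratio of eTreg to cTreg was 1.46 for the wide and 1.81 for the narrow sites in WT, and 1.20 for both in Pggt1bKO cells.

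**Figure D2:**
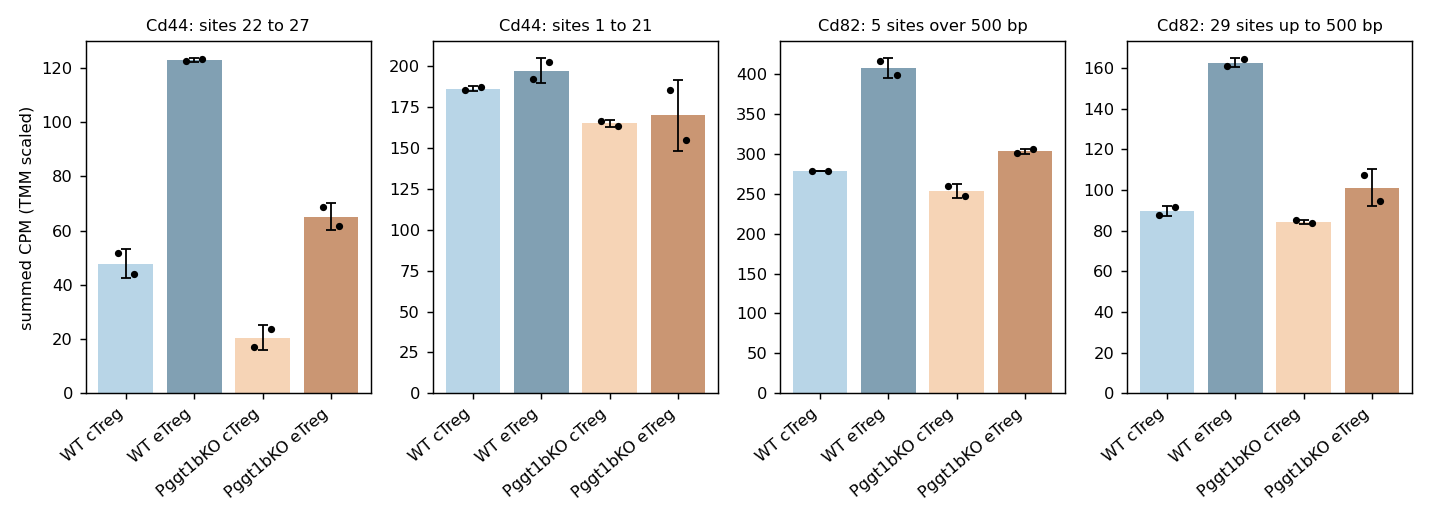
Summed CPM in each library (points), with group means (bars from 0) and SD (error bars, n = 2), for Cd44 sites 22 to 27, Cd44 sites 1 to 21, the 5 Cd82 sites over 500 bp and the 29 narrower Cd82 sites. WT eTreg is the highest group in all 4 panels, by the most at Cd44 sites 22 to 27 (ratio 2.57 to WT cTreg) and by little at Cd44 sites 1 to 21 (1.06).

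Among the wide Cd82 sites, site 22 (93294432-93295048) differed most between the subsets. It read 37.5 and 41.2 CPM in WT cTreg and 72.7 and 82.2 CPM in WT eTreg, a log2 difference of 0.98 ± 0.11. The 3 sites with the highest levels were 12 (93264653-93265621), 13 (93267333-93268755) and 27 (93301959-93302908). Site 12 rose from 66.6 and 65.4 CPM to 97.6 and 92.0 CPM (0.52 ± 0.09). Site 13 rose from 66.4 and 58.7 CPM to 89.6 and 84.9 CPM (0.48 ± 0.09). Site 27 rose from 59.6 and 64.5 CPM to 84.7 and 77.9 CPM (0.39 ± 0.09). At none of these 4 sites did a WT eTreg library reach down to a WT cTreg library. The 5 wide sites together held 63.8% of the summed Cd82 difference and 71.4% of the summed WT eTreg level.

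The narrow Cd82 sites had low levels in WT cTreg and larger relative differences. Site 1 (93251453-93251708), at the left end of the run, rose from 3.14 and 4.91 CPM to 17.6 and 20.97 CPM (2.26 ± 0.25). Site 20 (93293254-93293307) rose from 1.77 and 1.66 CPM to 7.79 and 5.91 CPM (1.98 ± 0.38), and site 21 (93293569-93293626) from 0.483 and 1.11 CPM to 4.82 and 4.62 CPM (2.54 ± 0.50). These 2 sites lie directly beside the wide site 22. Site 18 (93285696-93285870) rose from 0.966 and 0.475 CPM to 4.63 and 4.75 CPM (2.68 ± 0.48), and site 8 (93260157-93260221) from 0.403 and 0.554 CPM to 2.60 and 3.26 CPM (2.58 ± 0.61), a call lost without WT eTreg replicate 2 (2.39). Site 23 (93296801-93296843) rose on few counts, 5 in WT cTreg and 94 in WT eTreg, a ratio of 18.5 with a 95% counting interval of 6.04 to 196. Intervals of this kind cover counting error only.

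**Figure D3:**
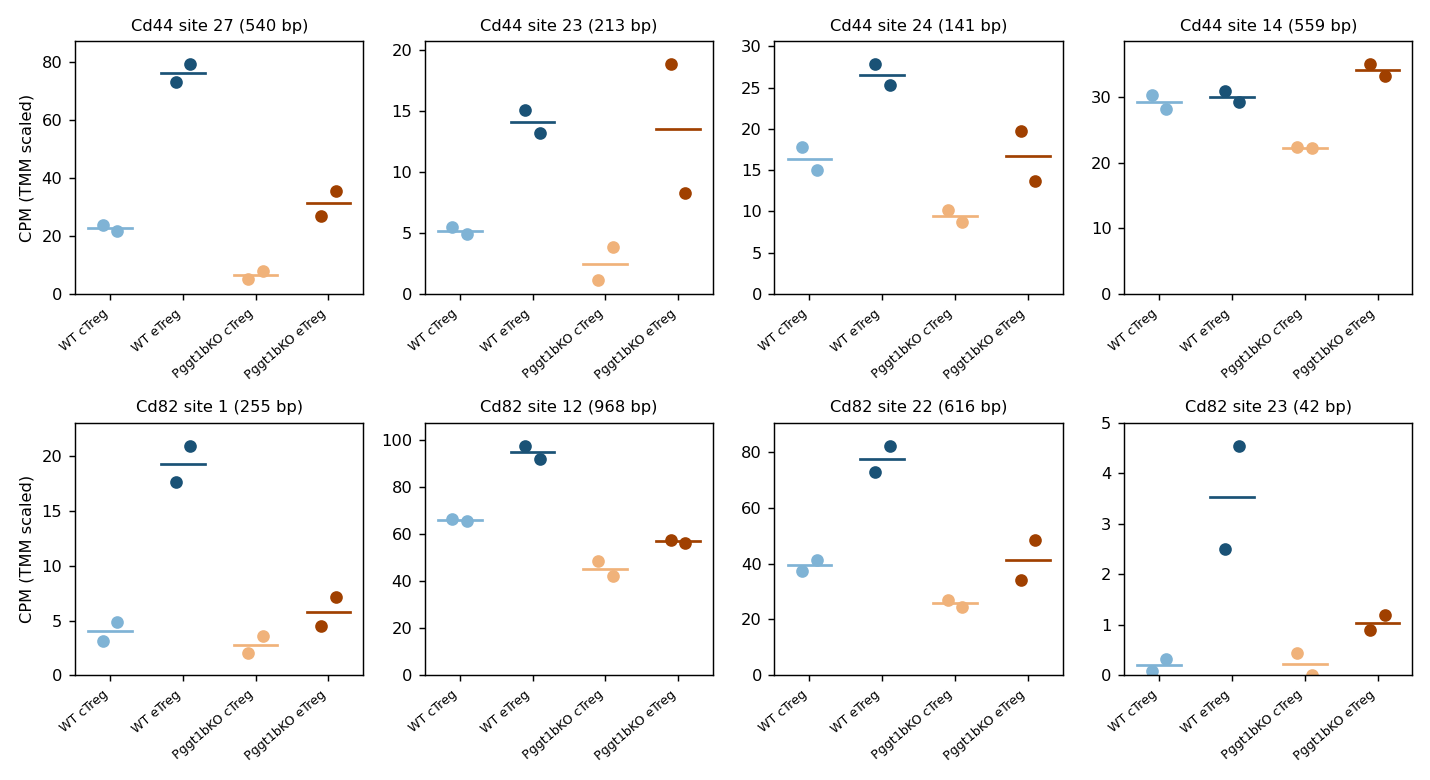
CPM of 4 Cd44 and 4 Cd82 sites in each of the 8 libraries (points) with group means (lines), 1 panel per site, each axis from 0. At Cd44 site 27 the WT eTreg libraries read 72.9 and 79.1 CPM and the Pggt1bKO cTreg libraries 5.16 and 8.005 CPM, and at Cd82 site 22 the Pggt1bKO eTreg libraries (34.1 and 48.6 CPM) stay below both WT eTreg libraries.

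The second comparison addresses the effect of the Pggt1b deletion in cTreg cells. Called differences were few and all were lower in Pggt1bKO cTreg, at 2 of 27 Cd44 sites and 3 of 31 Cd82 sites, where 1.69% of all sites were called lower and 0.53% higher. No member was called higher by edgeR, by edgeR at an unadjusted p under 0.05, by DESeq2 or by limma-voom (0 in each). The median log2 difference was -0.33 at Cd44, -0.04 at Cd82 and -0.03 over all sites. Cd44 site 27 read 5.16 and 8.005 CPM in Pggt1bKO cTreg against 23.8 and 21.6 CPM in WT cTreg, a log2 difference of -1.81 ± 0.18. It made up 3.55% of the summed Cd44 level in Pggt1bKO cTreg. Cd44 site 24 read 10.2 and 8.70 CPM against 17.8 and 14.97 CPM (-0.79 ± 0.19). Sites 22 to 27 of Cd44 together averaged 47.8 ± 5.42 CPM in WT cTreg and 20.5 ± 4.57 CPM in Pggt1bKO cTreg (SD, n = 2), which was 56.1% of the summed Cd44 difference.

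At Cd82 the called sites were 12, 22 and 25 (93301084-93301277). Site 12 read 48.5 and 42.2 CPM in Pggt1bKO cTreg against 66.6 and 65.4 CPM in WT cTreg (-0.54 ± 0.10). Site 22 read 27.03 and 24.6 CPM against 37.5 and 41.2 CPM (-0.60 ± 0.13), and site 25 read 6.06 and 5.52 CPM against 10.5 and 10.5 CPM (-0.85 ± 0.24). None of the 3 overlapped between the genotypes, which the naming rule required. The wide sites 13 and 27 of Cd82, with like WT levels, were not called. Site 13 read 65.7 and 67.1 CPM and site 27 read 60.6 and 65.4 CPM in Pggt1bKO cTreg, log2 differences of 0.09 and 0.02. The call at site 25 was lost in 10 of 15 alternatives. The call at site 12 was lost without WT cTreg replicate 1 (-0.52) and that at site 22 without WT cTreg replicate 2 (-0.53), and both without Pggt1bKO cTreg replicate 2 (-0.44 and -0.54). The Cd44 count of 2 became 1 without either WT cTreg library or without Pggt1bKO cTreg replicate 1, the call at site 24 being the one lost. Without Pggt1bKO cTreg replicate 2 the call at site 24 was lost as well (-0.68), with another Cd44 site called in its place. The Cd82 count of 3 became 1 without either WT cTreg library and 0 without Pggt1bKO cTreg replicate 2.

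The third comparison addresses the deletion in eTreg cells, where the shallow Pggt1bKO libraries limit precision. At Cd44, 4 of 27 sites were called lower, and at Cd82 5 of 31, where 6.43% of all sites were called lower and 4.66% higher. No member was called higher by edgeR, DESeq2 or limma-voom (0 in each), and at an unadjusted p under 0.05 edgeR gave 2 higher at Cd44 and 0 at Cd82. The median log2 difference was -0.50 at Cd44, -0.73 at Cd82 and -0.09 over all sites. Cd44 site 27 read 26.9 and 35.6 CPM in Pggt1bKO eTreg against 72.9 and 79.1 CPM in WT eTreg (-1.30 ± 0.17). Its Pggt1bKO eTreg level was above that of both WT cTreg libraries. Cd44 site 7 read 2.69 and 3.56 CPM against 9.18 and 12.2 CPM (-1.80 ± 0.43), below its WT cTreg level of 5.24 and 5.46 CPM, a call lost by limma-voom and without WT eTreg replicate 2 (-1.57) or Pggt1bKO eTreg replicate 1 (-1.60). The other called Cd44 sites, 3 (102671889-102672016) and 21 (102753274-102753457), differed by -1.68 ± 0.56 and -1.40 ± 0.44 and lost their call in 9 and 6 of 14 alternatives.

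At Cd82, site 22 read 34.1 and 48.6 CPM in Pggt1bKO eTreg against 72.7 and 82.2 CPM in WT eTreg, a log2 difference of -0.93 ± 0.15. Site 12 read 57.4 and 56.3 CPM against 97.6 and 92.0 CPM (-0.73 ± 0.12), and site 1 read 4.49 and 7.11 CPM against 17.6 and 20.97 CPM (-1.78 ± 0.36). Sites 1, 12 and 22 did not overlap between the genotypes, which the naming rule required. Site 7 (93258646-93258838), which did not differ by call between the WT subsets, read 3.59 and 4.74 CPM against 9.45 and 9.10 CPM (-1.18 ± 0.39), a call lost in 9 of 14 alternatives. Site 8 was called on 1 count in the Pggt1bKO eTreg libraries against 76 in WT eTreg, a ratio of 11.7. Its 95% counting interval, 0.985 to 236, takes the 1 count as a whole pair and includes no difference. Sites 13, 24 (93298941-93300226) and 27 were not called, with log2 differences of -0.31, 0.09 and -0.33. The Cd44 count of 4 became 2 without WT eTreg replicate 1 or Pggt1bKO eTreg replicate 2 and 1 without WT eTreg replicate 2. The Cd82 count of 5 became 3 without any 1 of the 4 WT libraries.

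Site 27 of Cd44 and sites 12 and 22 of Cd82 were called lower in Pggt1bKO in both subsets. The comparisons share no library but come from 1 fit with a common scaling and estimate of the spread. Whether the subsets came from the same hosts is not stated. These sites were 3 of the 5 members called lower in cTreg and 3 of the 9 called lower in eTreg. Over all sites these shares were 56.5% and 14.8%, and 0.953% of tested sites were called lower in both subsets.

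The fourth comparison is between the subsets of Pggt1bKO cells. At Cd44, 5 sites were called higher in Pggt1bKO eTreg and 1 lower, and at Cd82 likewise 5 and 1, where 4.59% and 4.52% of all sites were called in these directions. Cd44 site 27 rose from 5.16 and 8.005 CPM to 26.9 and 35.6 CPM, a log2 difference of 2.25 ± 0.23. Cd44 site 23 rose from 1.12 and 3.86 CPM to 18.8 and 8.30 CPM (2.55 ± 0.42) and site 24 from 10.2 and 8.70 CPM to 19.7 and 13.6 CPM (0.84 ± 0.26). The groups stood apart at all 3 sites, as the naming rule required, although the Pggt1bKO eTreg libraries of site 23 lay far from each other. Without Pggt1bKO eTreg replicate 1 the calls at sites 23 and 24 were lost (1.78 and 0.51), and that of site 24 was lost in 8 of 14 alternatives. Sites 22 to 27 of Cd44 summed to 17.3 and 23.7 CPM in Pggt1bKO cTreg and to 68.6 and 61.6 CPM in Pggt1bKO eTreg, a ratio of 3.18 beside the WT ratio of 2.57. Cd44 site 14 was called here, with 22.3 and 22.2 CPM in Pggt1bKO cTreg and 35.0 and 33.2 CPM in Pggt1bKO eTreg (0.62 ± 0.18), as was site 12 (0.63 ± 0.18). The calls at sites 14 and 12 were lost by limma-voom and with only the compared libraries. They were also lost without either Pggt1bKO cTreg library or without Pggt1bKO eTreg replicate 1. Cd44 site 21 fell from 11.4 and 10.3 CPM to 4.49 and 1.19 CPM (-1.84 ± 0.43), a call lost by limma-voom (-1.96) and without Pggt1bKO eTreg replicate 2 (-1.29).

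At Cd82, site 22 rose from 27.03 and 24.6 CPM in Pggt1bKO cTreg to 34.1 and 48.6 CPM in Pggt1bKO eTreg (0.65 ± 0.17). Site 25 rose from 6.06 and 5.52 CPM to 15.2 and 9.48 CPM (1.12 ± 0.31), site 26 (93301461-93301652) from 4.94 and 4.55 CPM to 14.8 and 8.30 CPM (1.32 ± 0.34), and site 18 from 0.785 and 1.52 CPM to 5.83 and 2.37 CPM (1.92 ± 0.63). Site 18 rested on 18 counts in Pggt1bKO cTreg and 17 in Pggt1bKO eTreg, and its Pggt1bKO eTreg libraries lay far from each other. The fifth site called higher, 9 (93260369-93260437), held 0 counts in Pggt1bKO cTreg and 5 in Pggt1bKO eTreg, too few for a fold. Site 7 fell from 10.5 and 8.28 CPM to 3.59 and 4.74 CPM (-1.21 ± 0.40), a call lost in 11 of 14 alternatives. The 3 Cd82 sites with the highest levels were not called between the Pggt1bKO subsets, with differences of 0.32 ± 0.13 at site 12, 0.09 ± 0.12 at site 13 and 0.04 ± 0.13 at site 27. Site 1 of Cd82, among the largest differences in WT, read 2.02 and 3.59 CPM in Pggt1bKO cTreg and 4.49 and 7.11 CPM in Pggt1bKO eTreg (1.04 ± 0.46, not called). Without Pggt1bKO eTreg replicate 1 the calls at Cd82 sites 25 and 26 were lost (0.69 and 0.79), and without Pggt1bKO eTreg replicate 2 that at site 22 (0.39), which was also lost without Pggt1bKO cTreg replicate 2 (0.57). Of 14 alternatives in all, the calls at sites 25, 26 and 22 were lost in 5, 2 and 3. The Cd44 count of 6 became 3 without either Pggt1bKO cTreg library (2 higher and 1 lower each time). It also became 3 without Pggt1bKO eTreg replicate 1, but with 1 higher and 2 lower. Without Pggt1bKO eTreg replicate 2 it stayed at 6, with 6 higher and 0 lower. The Cd82 count of 6 became 3 without WT eTreg replicate 2 or either Pggt1bKO cTreg library and 1 without Pggt1bKO eTreg replicate 1.

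**Figure D4:**
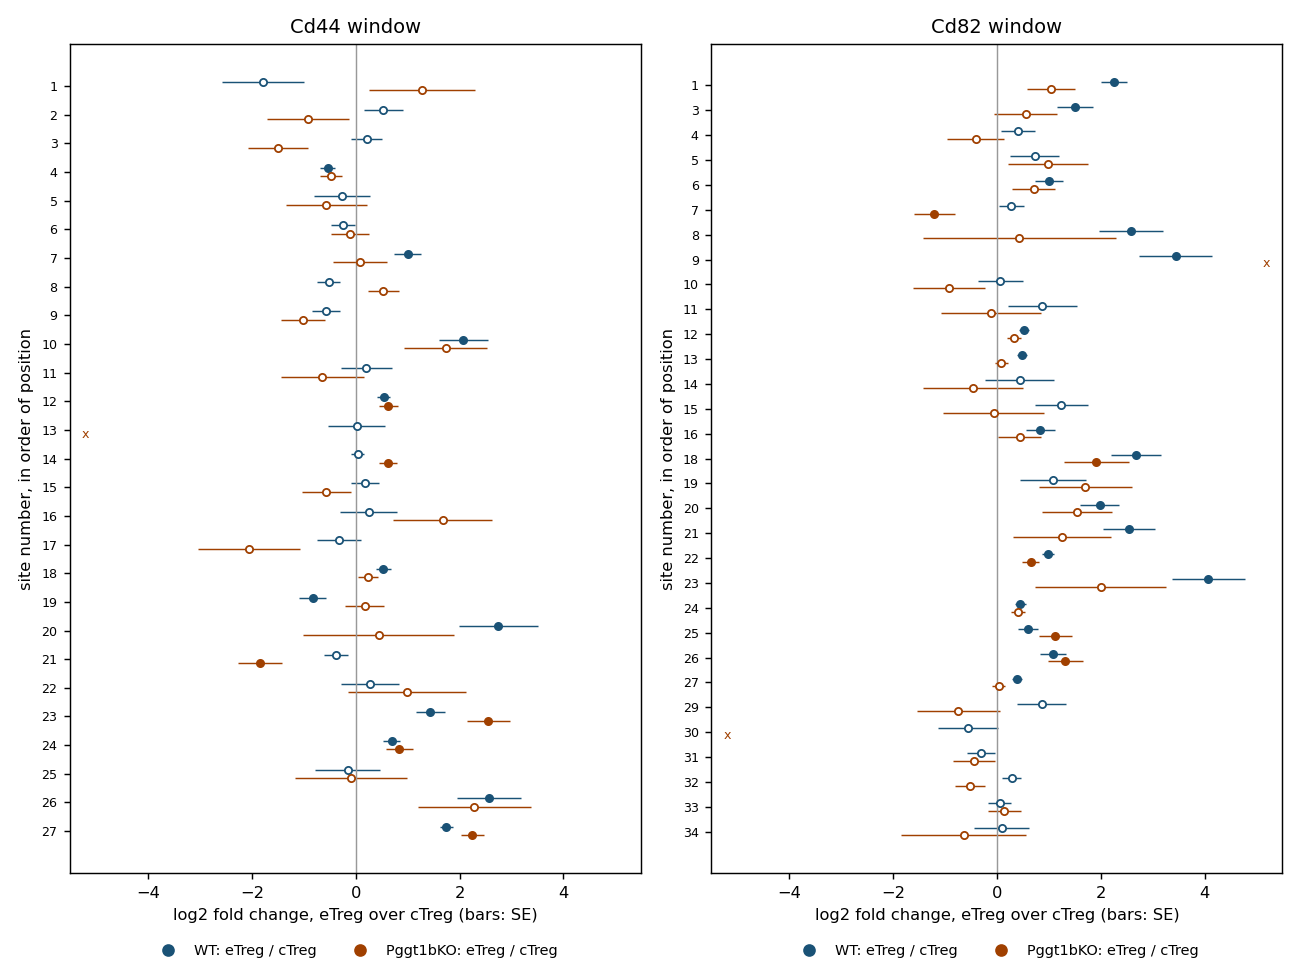
Log2 fold change of eTreg over cTreg (horizontal axis, bars are SE) at each of the 58 tested sites (vertical axis, numbered by position), in WT and in Pggt1bKO cells. Filled points were called and open points were not. An x at the side marks 3 Pggt1bKO values whose fit rests on a group with 0 counts. The WT points lie above 0 at 29 of 31 Cd82 sites and at 17 of 27 Cd44 sites, against 50.2% of all tested sites.

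The subset differences of WT and Pggt1bKO cells come from separate libraries and can be set side by side. All 26 members called higher in WT eTreg had a fitted Pggt1bKO difference above 0, where 80% of all WT eTreg-higher sites did. Of these 26, 9 were also called higher in Pggt1bKO eTreg than in Pggt1bKO cTreg (21.6% over all sites), and they were 9 of the 10 members called higher there (65% over all sites). The fitted difference was smaller in Pggt1bKO at 19 of the 26, 5 of 9 at Cd44 and 14 of 17 at Cd82, where 76.6% of all WT eTreg-higher sites showed the same. Selection on the WT call raises the WT value, so this share is read only against that background. The median log2 difference at these sites was 1.44 in WT and 0.84 in Pggt1bKO at Cd44. It was 1.08 and 0.70 at the 17 Cd82 sites, and 1.04 and 0.68 over the 16 with counts in both Pggt1bKO groups. Spearman's rho between the 2 differences across sites was 0.518 at Cd44, 0.80 at Cd82 and 0.443 over all sites, a description over sites that share libraries and depth.

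The difference between the genotypes in the subset effect was tested by the interaction of genotype and subset. It was called at 0 of 58 member sites by edgeR, DESeq2 and limma-voom alike, where edgeR called 1.51% of all sites. At an unadjusted p under 0.05 edgeR gave 8 sites at Cd44 and 6 at Cd82, 14 of 58, where 15.1% of all sites had such a p. A difference between the genotypes in the subset effect was thus not shown at any single member. The median interaction on the log2 scale was -0.28 at Cd44 and -0.73 at Cd82, against -0.04 over all sites. Cd44 site 27 had an interaction of 0.51 ± 0.26, not called, so as a ratio its subset difference was fitted as larger in Pggt1bKO cells. In CPM that difference was smaller in Pggt1bKO cells. The means rose from 6.58 to 31.2 CPM there, against 22.7 to 76.0 CPM in WT. Of the 58 tested members 26, 13 in each window, were called in none of the 5 contrasts, while 64.9% of all tested sites were uncalled throughout.

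The window edges are a choice of the rule, and the nearest sites on either side differ in how they behave. At the right edge of Cd44, site 27 is the last inside, 2.7 kb from the edge, and the next site outside (102808138-102808266, 8.2 kb away) read 0.840 CPM in WT cTreg and 2.15 CPM in WT eTreg on average. At the left edge, site 1 (14.5 kb inside) averaged 1.12 and 0.321 CPM, and the site outside (102588062-102588193) averaged 9.07 and 11.9 CPM. For Cd82, site 1 is the first inside, 51.6 kb from the edge, and the site 25.4 kb outside (93174440-93174828) averaged 5.79 CPM in WT cTreg and 14.2 CPM in WT eTreg. At the other end, site 34 (82.2 kb inside) averaged 1.68 and 1.80 CPM, and the next site (93536378-93536382), 136.4 kb outside, averaged 0.720 and 0.682 CPM.

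The summed levels of both windows followed nearly the same pattern over the 8 libraries, with a Pearson r of 0.938 between their log2 sums. Among 3047 tiles of 200 kb with at least 10 tested sites, 96.5% were less like Cd44 than the Cd82 window was, and 95.3% were less like Cd82 than the Cd44 window was. The tiles most like Cd44 were on chromosome 18 from 60.6 to 60.8 Mb (r = 0.996), chromosome X from 162.6 to 162.8 Mb (0.992) and chromosome 14 from 45.6 to 45.8 Mb (0.991). The tiles most like Cd82 were on chromosome 10 from 116.8 to 117 Mb (0.996), chromosome 2 from 168.4 to 168.6 Mb (0.993) and chromosome 4 from 150.2 to 150.4 Mb (0.992). These are descriptions over 8 libraries in 4 groups, which share their scaling, and carry no p.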

How the data were processed

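ATAC-seq was measured in 8 libraries, 2 in each of 4 groups, grouped by their titles. The authors deposited raw counts per peak interval in 1 table of 79758 sites. Per the submitters' processing notes, MACS2 2.1.1, bedtools, SAMtools, Picard 2.9.4 and Trimmomatic 0.36 were used with the mouse build mm9. Not given in the sources used here are the aligner, the read shift for the transposase, the peak threshold, any pooling for peak calling and the unit counted (reads or fragments). Peaks found mainly in deep groups would give more sites where those groups are open, and this was not tested. Counts were filtered (filterByExpr), scaled by TMM and tested with edgeR 4.0.16 in R 4.3.3, with 1 mean per group over all 8 libraries and Benjamini-Hochberg adjustment over the 75352 sites left. Site values are TMM-scaled CPM, and errors of fold changes are standard errors from the fit. DESeq2 1.42.0, limma-voom 3.58.1 with weights shared within groups, other scalings and filters, a replicate block and each library left out in turn were alternatives. The scripts were tested on simulated data. Totals per library ran from 1664702 to 14974253 counts. The 2 libraries of a group differed by 2.067 to 2.28 chi-square units per degree of freedom, so none was a copy of another. Because counts come mostly in pairs, these values cannot tell separate samples from repeat sequencing of 1 sample. A floor of 6 counts over a group (3 pairs, since counts come mostly in pairs) was used: no fold is given where both groups are at or under it, and where 1 group is, the ratio of scaled counts is given with its counting interval. That interval was computed on counts taken as rounded pairs, with at least 1 pair in the lower group.

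Members, lists and tests were chosen with earlier results of these data known. Sites were named by rule: the 3 of highest mean CPM in each window, then called sites with a mean count of at least 20 and no overlap between groups, up to 6 by size of change for the WT subsets and up to 4 for each other contrast, and the sites at the window edges. Sites outside the rule are named as such or complete a count of 5 or fewer. Lists of pathway genes and cell type markers needed an mm9 annotation and were not used here. Promoter sequences came from RefSeq (GRCm38.p6), in which both genes were matched by symbol.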

Additional observations from a re-analysis of the deposited data

Results flagged for a closer look

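At 3 flagged sites every library moved one way in 1 subset or genotype and the opposite way in the other. They are not a full list of the members with this pattern. At Cd44 site 8, Pggt1bKO cTreg read 8.972 and 7.867 CPM against 9.664 and 11.25 in WT cTreg. Pggt1bKO eTreg there read 12.56 and 11.85 CPM against 7.044 and 7.467 in WT eTreg. Cd44 site 14 read 30.36 and 28.19 CPM in WT cTreg, 30.86 and 29.19 in WT eTreg, 22.32 and 22.22 in Pggt1bKO cTreg, and 34.98 and 33.19 in Pggt1bKO eTreg. Both Pggt1bKO libraries were thus below WT in cTreg and above WT in eTreg. Cd44 site 19 read 9.02 and 8.157 CPM in WT cTreg, 5.283 and 4.412 in WT eTreg, 7.178 and 7.039 in Pggt1bKO cTreg, and 5.382 and 11.26 in Pggt1bKO eTreg, again lower than WT in cTreg and higher in eTreg. The margin in eTreg was narrow, at 5.382 against 5.283 CPM. Cd82 site 7 read 7.812 and 7.444 CPM in WT cTreg, 9.454 and 9.096 in WT eTreg, 10.54 and 8.281 in Pggt1bKO cTreg, and 3.588 and 4.741 in Pggt1bKO eTreg. It was higher in eTreg than in cTreg in WT and lower in Pggt1bKO cells, and higher than WT in Pggt1bKO cTreg and lower in Pggt1bKO eTreg. The pattern of non-overlapping libraries was not itself tested. Neither its full count among the members nor its share over all sites was computed, so the 3 flagged sites are no result about these loci. The interaction term at these sites was 0.58 ± 0.22 for Cd44 site 14, 1.003 ± 0.46 for Cd44 site 19 and -1.49 ± 0.46 for Cd82 site 7 on the log2 scale (SE), and edgeR called none of the 3.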

How the results depend on the processing

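Over 788 re-estimates of all 54 calls at members, 647 kept the call, 141 lost it and 0 reversed. Of 479 re-estimates of the 33 named changes, 393 kept their call and 86 lost it. The 4 calls at Cd44 site 27 held in every alternative run. For Pggt1bKO eTreg against WT eTreg, the Cd44 count of 4 became 2 by DESeq2, 2 with only the compared libraries and 1 by limma-voom, and the Cd82 count of 5 became 3, 3 and 3. For Pggt1bKO eTreg against Pggt1bKO cTreg, the count of 6 at Cd44 became 3 with only the compared libraries and 2 by limma-voom, and the 6 at Cd82 became 1 and 2. Fewer sites pass the filter in fits of the compared libraries. With 1 library left out (the lone library of a group is assumed to vary like the others), Cd44 counts ran from 6 to 12 for the WT subsets, 1 to 3 for Pggt1bKO cTreg, 1 to 4 for Pggt1bKO eTreg and 3 to 6 for the Pggt1bKO subsets, and Cd82 counts from 13 to 19, 0 to 3, 3 to 5 and 1 to 6. The interaction stayed at 0 in all. The replicate block gave 11, 2, 4, 6 and 0 calls at Cd44 and 17, 2, 4, 4 and 0 at Cd82; same-numbered libraries deviated together with correlations of only -0.018 to 0.064, so the numbers were not taken to pair. The setting with both Pggt1bKO eTreg libraries left out and that with windows widened by 20 kb were chosen after seeing the data and kept each count within 1.5 times. Scaling by the plain total gave 311.8 CPM for Cd44 in WT eTreg, 370.8 for Cd82 in WT cTreg and 554.7 for Cd82 in WT eTreg, and DESeq2 size factors 363.7 for Cd82 in WT cTreg. Single libraries spanned 231.3 to 236.7, 314.3 to 325.9, 183.8 to 187.0 and 216.3 to 253.8 CPM at Cd44 and 366.3 to 369.7, 562.3 to 577.0, 331.1 to 345.1 and 400.0 to 408.6 CPM at Cd82, in the order WT cTreg, WT eTreg, Pggt1bKO cTreg and Pggt1bKO eTreg. Depth limits the Pggt1bKO eTreg values, where the median count at tested members was 8 and 4.5.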
